A study of Homo sapiens with 9 samples.

Results

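The human genes whose symbols begin with ZNF encode zinc finger proteins, and chromosome 19 holds more of them, in tandem clusters, than other chromosomes. The genes described here are the protein-coding ZNF genes that the count files place on chromosome 19 and that had 10 or more counts in at least 3 of the 9 libraries. Of 251 annotated protein-coding ZNF genes on chromosome 19, 222 met this count rule, out of 60671 genes in the files. The rule was applied to all libraries together and did not use the difference between groups.

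Most chromosome 19 ZNF proteins carry an array of C2H2 fingers that reads a DNA sequence, and many carry a KRAB domain that recruits the corepressor TRIM28 and, through it, the histone methyltransferase SETDB1, heterochromatin proteins and DNA methylation. The family grew by repeated local duplication, so neighbours on the chromosome are often close copies of each other. Many members bind retrotransposons and keep them silent, and others act on single genes.

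RNA was sequenced from H295R, an established human adrenocortical carcinoma line with steroid hormone output. There were 3 libraries each of cells labelled SGPL1 OE, cells labelled SGPL1 KO and cells labelled WT, all without treatment and grown in the same medium. SGPL1 encodes sphingosine-1-phosphate lyase, and the title of the series asks about elevated SGPL1 in this carcinoma. Per the series description these are 3 biological replicates in each group. The sources used here do not give the edit in the KO cells, the construct in the OE cells, whether each line is 1 clone, or what separates the replicates. Tests therefore compare these lines over the spread among their 3 libraries. Since the RNA is from bulk culture, fewer cells of a type and less RNA per cell cannot be told apart.

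Library totals ran from 8006873 to 10895080 counts. SGPL1 stood at 93.5 ± 10.7 CPM (counts scaled to a common library total) in the OE libraries, 48.3 ± 5.05 in the KO libraries and 94.3 ± 9.64 in the WT libraries (SD, n = 3 each). Its log2 fold change was -0.97 between KO and WT (SE 0.14, edgeR adjusted p = 0.000105) and -0.01 between OE and WT (SE 0.14, edgeR adjusted p = 0.966). It was thus not higher in the libraries labelled OE, and OE is used below as a label only. All 10 adrenocortical markers, NR5A1 and STAR among them, had 10 or more counts in at least 3 libraries, and the chromaffin cell genes DBH, TH and PNMT had no count in any library. A set of 4 epithelial markers summed to 26.9 to 28.8 CPM in OE, 10.5 to 12.9 in KO and 24.7 to 29 in WT. KRT5 and KRT14 were at 0 in all libraries, and only 1 of the 4 had 10 or more counts in at least 3 libraries. The sum thus does not show a population of epithelial cells, and the part of this difference in the KO results was not tested. OE replicate 2 stood apart by its TMM scaling factor of 0.903.

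By position, 66 of the 222 genes lie on the p arm and 156 on the q arm, split at 26 Mb of GRCh38. Clusters were defined as runs of annotated ZNF genes with gaps under 1 Mb, and 8 clusters held 5 or more of the genes, 209 in all. On the p arm these are P1 at 7.1 to 9.8 Mb with 14 genes, P2 at 11.5 to 12.6 Mb with 19 and P3 at 19.7 to 24.1 Mb with 29. On the q arm they are Q1 at 34.7 to 35.0 Mb with 5, Q2 at 36.2 to 37.8 Mb with 27, Q3 at 43.5 to 45.1 Mb with 21, Q4 at 51.6 to 53.6 Mb with 38 and Q5 at 55.5 to 58.5 Mb with 56. The other 13 genes lie alone or in smaller groups. The 29 annotated genes that missed the count rule were spread unevenly, with 19 of 85 on the p arm (22.4%) and 10 of 166 on the q arm (6.02%). Among them ZNF177, ZNF98, ZNF534 and the read-through genes ZNF625-ZNF20 and ZNF816-ZNF321P had no count in any library. Just inside the rule were ZNF540 and ZNF676, for which the third highest count was 12, and just outside were ZNF221 and ZNF714, for which the third highest count was 8.

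The sequences printed here lie upstream of 2 neighbouring P3 genes called in opposite directions in KO cells, ZNF100 and ZNF43, and upstream of ZNF616 and ZNF578, Q4 genes called lower in OE under every setting tried. The genes were chosen by these calls, and a link between the sequences and the counts was not tested. Each sequence is the 250 bases before the RefSeq start of the gene on GRCh38.p14, read 5′ to 3′ on the gene's strand. For the first pair the capitals mark runs of at least 12 bases that both sequences share.
ZNF100 (chr19:21767580-21767829, minus strand): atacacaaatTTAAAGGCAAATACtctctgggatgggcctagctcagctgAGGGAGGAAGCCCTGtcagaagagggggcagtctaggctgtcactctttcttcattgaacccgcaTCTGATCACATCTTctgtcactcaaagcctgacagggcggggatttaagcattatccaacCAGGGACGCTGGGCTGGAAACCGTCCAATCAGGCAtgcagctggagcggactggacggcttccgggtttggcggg
ZNF43 (chr19:21836183-21836432, minus strand): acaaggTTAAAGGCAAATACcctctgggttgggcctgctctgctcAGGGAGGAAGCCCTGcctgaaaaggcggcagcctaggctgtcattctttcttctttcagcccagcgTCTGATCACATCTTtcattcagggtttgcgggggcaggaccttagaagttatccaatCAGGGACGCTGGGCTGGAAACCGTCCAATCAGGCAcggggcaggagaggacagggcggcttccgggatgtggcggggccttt
The RefSeq start of ZNF43 lies inside the longer span that the count files give for the gene. The longest run shared by the pair was 35 bases, and 78 of the 250 bases of each lay in such runs. Among the 196 genes with a RefSeq promoter, the longest run shared with another member ran from 11 to 56 bases with a median of 17, and each gene of this pair had the other as its closest match. A run of this size was not particular to the pair within P3. There ZNF486 and ZNF493 shared 46 bases and ZNF90 and ZNF93 shared 45, while the longest runs of ZNF492 and ZNF14 were 28 and 15. For the Q4 genes the capitals mark CG dinucleotides, the sites of DNA methylation.
ZNF616 (chr19:52139939-52140188, minus strand): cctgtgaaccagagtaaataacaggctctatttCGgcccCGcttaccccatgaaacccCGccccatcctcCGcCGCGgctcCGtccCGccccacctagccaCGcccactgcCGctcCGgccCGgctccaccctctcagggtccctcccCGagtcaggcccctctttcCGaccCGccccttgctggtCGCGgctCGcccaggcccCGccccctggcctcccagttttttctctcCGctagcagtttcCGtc
ZNF578 (chr19:52453303-52453552, plus strand): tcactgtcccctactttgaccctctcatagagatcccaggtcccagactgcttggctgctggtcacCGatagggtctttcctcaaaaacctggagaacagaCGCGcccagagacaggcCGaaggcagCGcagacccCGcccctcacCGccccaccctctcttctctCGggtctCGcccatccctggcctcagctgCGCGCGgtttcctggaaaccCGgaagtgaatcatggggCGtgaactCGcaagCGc
The ZNF616 stretch holds 21 CG dinucleotides and is 68.4% G or C, and the ZNF578 stretch holds 16 and is 62.0% G or C.

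Short motifs were counted on both strands in the 300 bases from 250 before to 50 after each RefSeq start. The ETS-type motif CCGGAAGT stood in 22.4% of the 196 members with a promoter, against 8.93% of 10010 protein-coding genes tested and 4.14% of all 35116 promoters in the table. CCAAT, a motif of the factor NF-Y, stood in 52% of members, against 37.3% of the protein-coding genes tested and 34.6% of all promoters. TATAAA was found in 2.04% of members, 5.25% of the protein-coding genes tested and 11.5% of all promoters. The ZNF578 stretch above holds CCGGAAGT. These are matches of letters, not measured binding.

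The zinc finger genes had lower counts than genes at large. Together they took 0.283%, 0.255% and 0.283% of the counts of OE replicates 1 to 3, 0.301%, 0.305% and 0.321% in KO and 0.316%, 0.304% and 0.346% in WT. The OE libraries were all below the KO and WT libraries, which overlapped. The median mean count was 86.6 for the members, against 213 for all 14150 genes tested. Per length, the median level in WT was 1.82 CPM per kb for the members and 4.56 for all genes tested. The median standard error of the log2 fold change between KO and WT was 0.23 for the members and 0.19 for all genes tested. Below 1 CPM per kb were 73 members in OE, 71 in KO and 59 in WT.

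Levels per length spanned a wide range, and their order was similar in the 3 groups. Over the 222 genes the Spearman correlation of mean CPM per kb was 0.96 between OE and WT, 0.96 between KO and WT and 0.95 between OE and KO, a description over genes that share libraries and length. The highest level in WT was that of ZNF428, with 47.7 ± 17.8 CPM per kb in OE, 23.5 ± 4.1 in KO and 41.6 ± 3.27 in WT (SD, n = 3 each). ZNF146, a protein made almost only of fingers that lacks a KRAB domain, stood at 20.2 ± 3.64 CPM per kb in OE, 24.0 ± 2.83 in KO and 26 ± 4.39 in WT. ZNF787 stood at 22.3 ± 3.93 CPM per kb in OE, 23.9 ± 2.82 in KO and 18.2 ± 0.758 in WT. In WT, ZNF358, ZNF865 and ZNF581 followed at 13.0 ± 1.88, 12.4 ± 3.30 and 12 ± 2.20 CPM per kb, 3 neighbours in that order that do not differ beyond their spread. At the low end, ZNF665 had 0.0448 CPM per kb in WT.

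Of 16 members with a known role, 1 was called between OE and WT and 1 between KO and WT, against 20.7% and 18.8% of all genes tested. ZNF91 and ZNF93, which silence SVA and L1 retrotransposons in primates, stood at 17.8 ± 3.95 and 13.1 ± 2.35 CPM in OE, 14.7 ± 1.95 and 11.7 ± 2.28 in KO and 19.2 ± 3.93 and 9.11 ± 0.859 in WT. The adjusted p of ZNF91 by the edgeR quasi-likelihood test was 0.735 for OE and 0.218 for KO, and that of ZNF93 was 0.0897 for OE and 0.263 for KO, each against WT. ZNF274, which recruits SETDB1 to the 3′ ends of ZNF genes, stood at 19.8 ± 2.65 CPM in OE, 22.5 ± 1.14 in KO and 19.2 ± 1.70 in WT. ZNF653, a repressor of the steroidogenic regulator NR5A1, stood at 5.71 ± 1.89 CPM in OE, 5.55 ± 0.823 in KO and 4.48 ± 1.02 in WT. Neither ZNF274 nor ZNF653 was called in any comparison. ZNF649, ZNF417, ZNF350, ZNF224, ZNF675, ZNF461, ZNF382, ZNF331, ZNF304 and ZNF146 were also called in no comparison. The 2 called genes were ZNF473, which takes part in histone mRNA processing, between KO and WT, and ZNF587, a repressor of endogenous retroviruses, between OE and WT.

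Between KO and WT a small number of zinc finger genes changed. Of the 222 genes, 4 were called higher and 11 lower in KO by edgeR at an adjusted p under 0.05, which is 6.76%. Of all genes tested, 9.16% were called higher and 9.6% lower, 18.8% together, and the difference between these shares was not tested. Their median log2 fold change was -0.04, against -0.01 over all genes tested. The KO and WT libraries did not overlap for 63 members (28.4%), against 35.2% of all genes tested. With scaling by library totals the calls were 2 higher and 14 lower. The number called higher was 2 without WT replicate 1 or KO replicate 2, and the number called lower was 6 without WT replicate 3 or KO replicate 3 and 5 without KO replicate 2.

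**Figure D1:**
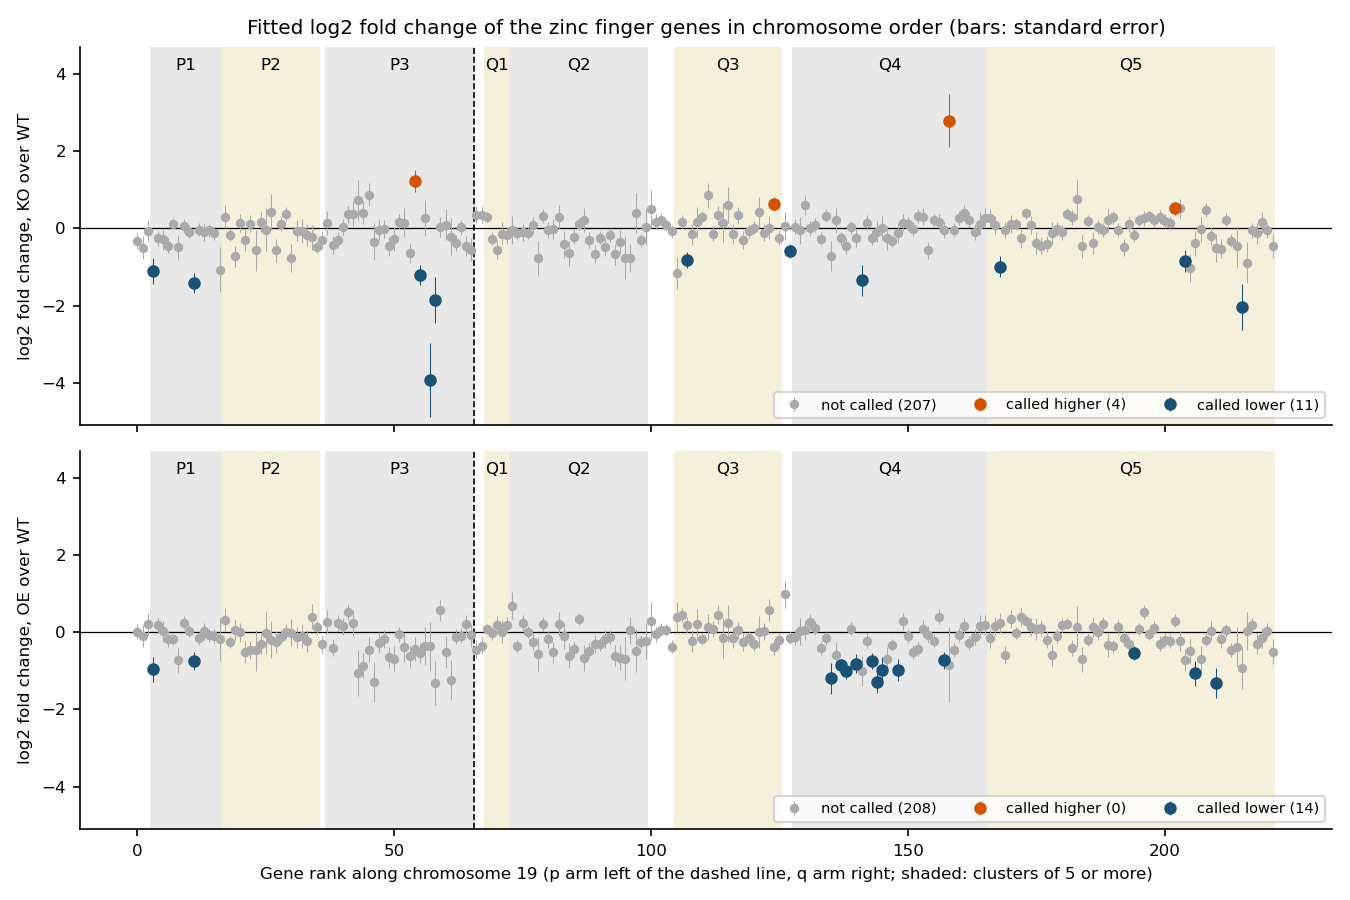
Fitted log2 fold change (points, with standard error bars) of the 222 genes by rank along chromosome 19, KO over WT above and OE over WT below, with clusters P1 to Q5 shaded. In KO 4 genes were called higher and 11 lower, scattered over both arms. In OE 14 were called lower, 9 of them in Q4.

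The genes called higher in KO were ZNF665, ZNF100, ZNF229 and ZNF586. ZNF665 (chr19:53159213-53193386, Q4) had 2, 2 and 1 counts in OE replicates 1 to 3, 16, 26 and 26 in KO and 7, 0 and 2 in WT. The gene was near the floor of detection in OE and WT, and its 3 KO libraries lay above all others. The gene passed the count rule only through the KO libraries, so its difference is a description. From 68 summed counts in KO and 9 in WT, its level in KO was 7.15 times that in WT, with a 95% exact interval of 3.55 to 16.3 that covers counting error only.

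ZNF100 (chr19:21722771-21767579, P3) stood at 4.18, 4.15 and 2.92 CPM in OE, 9.11, 11.1 and 14.9 in KO and 3.17, 6.72 and 5.18 in WT. The KO libraries lay above all WT and OE libraries, and the log2 fold change between KO and WT was 1.22 (SE 0.29, edgeR adjusted p = 0.00629). ZNF229 in Q3 averaged 27.4 ± 2.98 CPM in KO and 17.7 ± 3.79 in WT (SD, n = 3 each), a log2 fold change of 0.63 (SE 0.19, edgeR adjusted p = 0.0247). ZNF586 in Q5 averaged 22.9 ± 1.14 CPM in KO and 16.0 ± 2.25 in WT, a log2 fold change of 0.52 (SE 0.17, edgeR adjusted p = 0.0432).

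Of the 11 genes called lower in KO, 3 lie in P3. ZNF43 (chr19:21804946-21852125), the next P3 member after ZNF100, stood at 4.20, 3.89 and 3.32 CPM in KO and 9.27, 7.09 and 9.89 CPM in WT. Its KO libraries lay below all WT libraries, and the log2 fold change was -1.20 (SE 0.27, edgeR adjusted p = 0.00400). ZNF100 and ZNF43 thus differed from WT in opposite directions, with 17.9% and 11.4% of their 31-base stretches found in another gene's transcripts as well. ZNF676 (chr19:22179089-22215801) had 3, 12 and 12 counts in OE, 2, 0 and 0 in KO and 10, 8 and 16 in WT. From the summed counts its level in KO was 0.0557 times that in WT, with a 95% exact interval of 0.00648 to 0.217 that covers counting error only, and the gene passed the count rule through OE and WT libraries alone. ZNF492, whose transcripts share 45.1% of their 31-base stretches with other genes, averaged 0.893 ± 0.495 CPM in KO and 3.25 ± 1.35 in WT (SD, n = 3 each).

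ZNF560 (chr19:9466355-9498616, P1) had the smallest adjusted p among the members between KO and WT. It stood at 6.16, 4.7 and 6.49 CPM in OE, 4.09, 3.35 and 3.53 in KO and 7.92, 11.7 and 9.66 in WT. All OE libraries lay between the KO and the WT libraries, with no overlap, and the log2 fold change between KO and WT was -1.42 (SE 0.25, edgeR adjusted p = 7.87e-04). ZNF428, the highest member in WT by CPM per kb, stood at 42.6, 37.1 and 29.9 CPM in KO and 62.8, 70.4 and 60.8 in WT, a log2 fold change of -0.82 (SE 0.21, edgeR adjusted p = 0.0105). ZNF524 averaged 4.86 ± 1.29 CPM in KO and 9.68 ± 1.37 in WT, and ZNF473 averaged 16.4 ± 2.14 in KO and 24.5 ± 4.06 in WT (SD, n = 3 each). The other genes called lower in KO were ZNF497, ZNF557, ZNF587B and ZNF610. Exons of ZNF428 and ZNF497 overlap those of other genes over 32.1% and 52.3% of their length, and reads in such overlaps were left out of the counts.

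**Figure D2:**
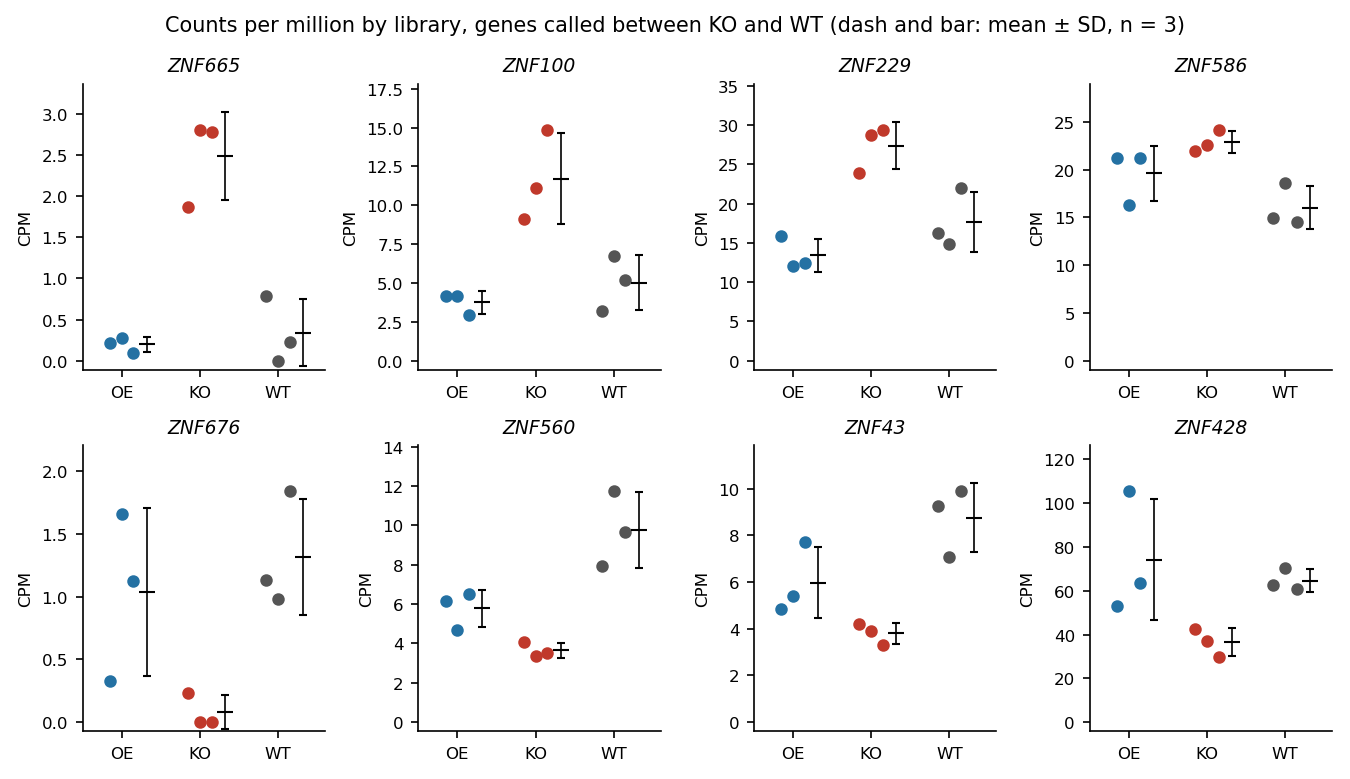
CPM in each library (points) with the group mean and SD (dash and bar, n = 3) for 8 genes called between KO and WT, groups OE, KO and WT from left to right, each panel on its own linear axis from 0. In the 4 upper panels every KO library lies above every WT library, and in the 4 lower panels every KO library lies below every WT library.

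Between the OE and WT libraries all called members were lower in OE. By edgeR 0 were called higher and 14 lower (6.31%), against 9.65% of all genes tested called higher and 11% called lower, 20.7% together. At an unadjusted edgeR p under 0.05, 6 members were higher and 39 lower, while DESeq2 called 2 higher and 16 lower and limma-voom 0 and 11. Counts at an unadjusted p, here and below, have no share of all genes beside them, so no excess is read from them. The median log2 fold change of the members was -0.16, against -0.01 over all genes tested, and 143 of the 222 genes lay below 0 (64.4%), against 50.8% of all genes tested. The OE and WT libraries did not overlap for 57 members (25.7%), against 36.4% of all genes tested. The number called lower was 6 without WT replicate 1, OE replicate 2 or OE replicate 3, and 3 without WT replicate 3. The median of the members was -0.10 without OE replicate 2.

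Of 229 ZNF genes tested on other chromosomes, 6 were called higher and 34 lower in OE (17.5%), with a median log2 fold change of -0.16. In KO 9 were higher and 23 lower (14%), with a median of -0.07. The other 681 protein-coding genes of chromosome 19 had 93 called higher and 87 lower in OE, with a median of 0.05, and 30 called higher and 67 lower in KO, with a median of -0.12. No difference between these lists was tested.

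Of the 14 genes called lower in OE, 9 lie in Q4. There 9 of 38 members were lower in OE (23.7%), against 11% of all genes tested called lower in OE and 5 of the 184 members elsewhere (2.72%). The 9 genes were ZNF432, ZNF616, ZNF836, ZNF480, ZNF528, ZNF578, ZNF808, ZNF611 and ZNF347, with log2 fold changes of -1.29 to -0.73. All 9 had every OE library below every WT library. Between KO and WT their log2 fold changes ran from -0.71 for ZNF432 to 0.02 for ZNF808, with edgeR adjusted p-values from 0.158 for ZNF836 to 0.981 for ZNF808. The count was 4 without WT replicate 1 or OE replicate 3, 3 without WT replicate 3, 5 without OE replicate 2 and 6 with an offset for gene length. Of the 9 genes, 8 lie in a run of 14 members from ZNF432 to ZNF611, at 52.03 to 52.74 Mb, chosen after its values were seen. In that run 13 of 14 lay below 0 in OE with a median log2 fold change of -0.84, while the other 24 members of Q4 had a median of -0.09. In KO the run had a median of -0.24, against 0.14 for the other 24 members.

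ZNF616 (chr19:52113091-52139938) stood at 17.7, 12.9 and 16.4 CPM in OE, 22.2, 27.7 and 21.7 in KO and 29.6, 28.4 and 27.5 in WT. The OE libraries lay below all others, while KO and WT overlapped at 1 library each, and the log2 fold change between OE and WT was -0.86 (SE 0.17, edgeR adjusted p = 0.00288). ZNF836 (chr19:52153864-52171643), its neighbour, stood at 9.13, 6.64 and 9.69 CPM in OE, 12.6, 14.9 and 10.2 in KO and 18.8, 13.9 and 18.5 in WT. The OE libraries lay below all others, while KO and WT overlapped, and the log2 fold change between OE and WT was -1.0 (SE 0.21, edgeR adjusted p = 0.00475). ZNF578 (chr19:52453553-52516882) stood at 1.76, 3.18 and 3.57 CPM in OE, 5.26, 7.24 and 7.27 in KO and 6.33, 7.70 and 6.90 in WT. Here too the OE libraries were the 3 lowest, and the log2 fold change between OE and WT was -1.29 (SE 0.30, edgeR adjusted p = 0.00698).

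The other Q4 genes called lower in OE lost their call under some settings. ZNF611 averaged 3.48 ± 0.270 CPM in OE, 6.32 ± 2.13 in KO and 6.88 ± 0.346 in WT, and ZNF347 averaged 12.7 ± 3.95 in OE, 20.6 ± 4.43 in KO and 21.1 ± 0.726 in WT (SD, n = 3 each). ZNF528 averaged 7.84 ± 0.165 CPM in OE, 11.2 ± 1.65 in KO and 13.2 ± 2.45 in WT. ZNF480, ZNF808 and ZNF432 had edgeR adjusted p-values of 0.0278, 0.0485 and 0.0453 between OE and WT. In the same cluster ZNF649 and ZNF350, a binder of L1 elements and a partner of BRCA1, stood at 8.46 ± 1.70 and 16.3 ± 0.844 CPM in OE, 12.5 ± 1.33 and 16.1 ± 3.10 in KO and 8.27 ± 2.59 and 15 ± 0.929 in WT, and neither was called.

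**Figure D3:**
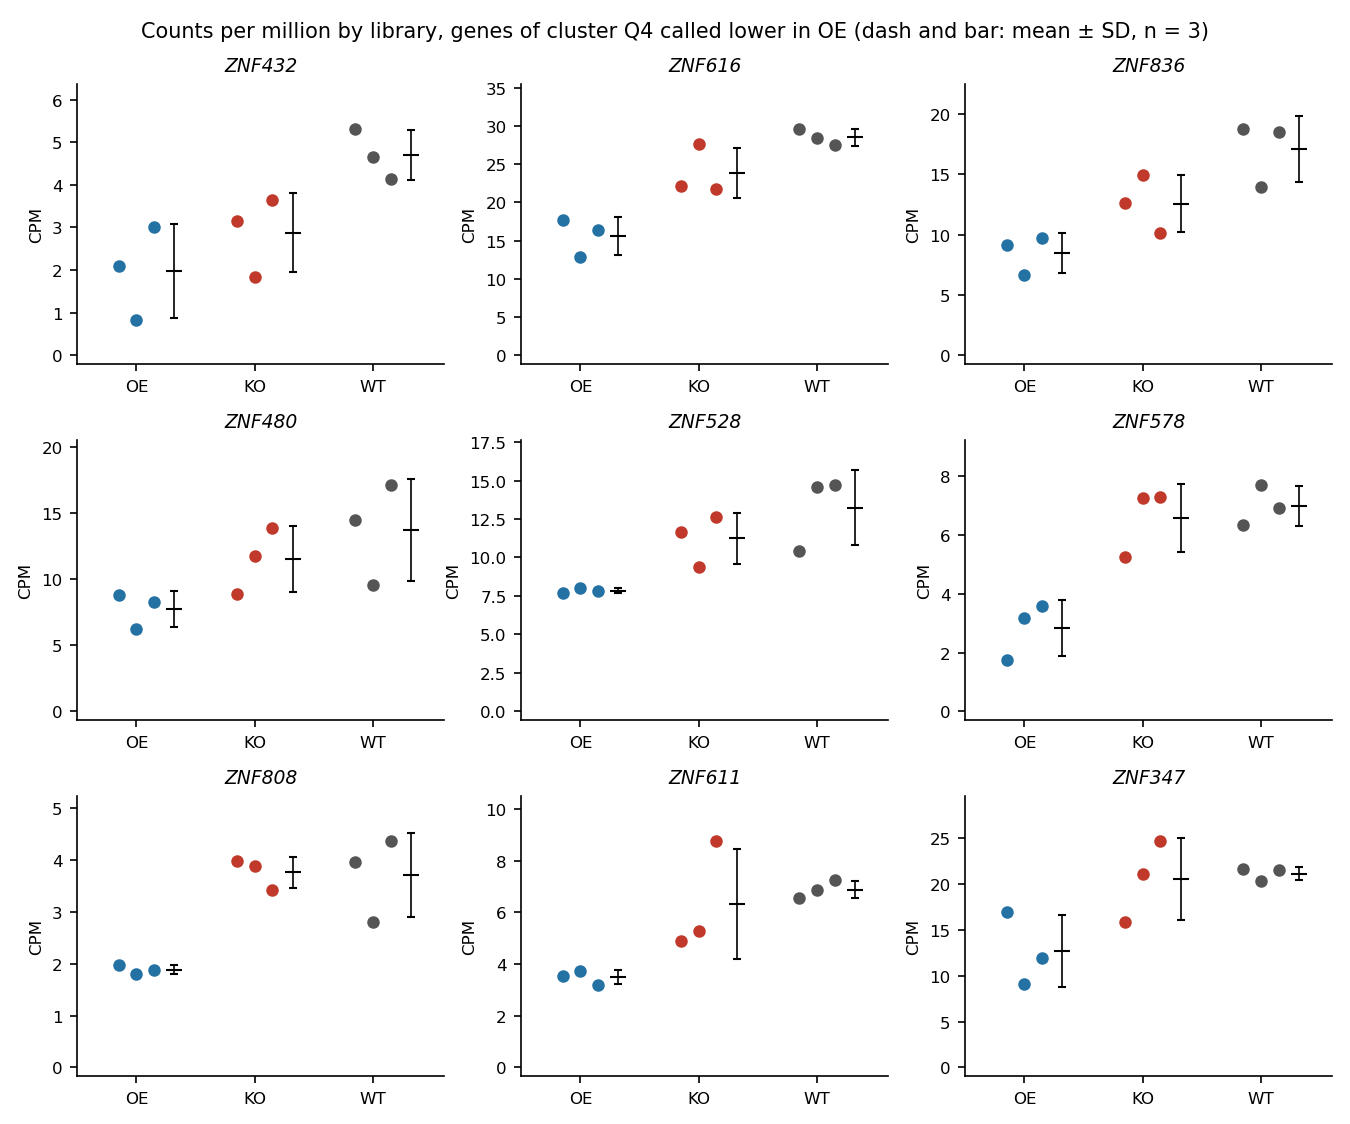
CPM in each library (points) with the group mean and SD (dash and bar, n = 3) for the 9 Q4 genes called lower in OE, groups OE, KO and WT from left to right, each panel on its own linear axis from 0. In each panel the 3 OE libraries lie below the 3 WT libraries. For ZNF616, ZNF836 and ZNF578 the KO and WT libraries overlap, and whether they do so in the other panels is not stated here.

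The other clusters had few or no calls in OE. Q5 had 3 members lower, ZNF135, ZNF587 and ZNF550, and P1 had 2, ZNF557 and ZNF560. P2, P3, Q1, Q2 and Q3 had 0 called between OE and WT by edgeR, DESeq2 or limma-voom, with 0, 10, 0, 5 and 1 members at an unadjusted edgeR p under 0.05. With library totals, 2 members each of P3 and Q2 were called lower, and a few other settings called 1 member in P2, P3, Q2 or Q3. P3 had a median log2 fold change of -0.37 in OE, lower than that of Q4 at -0.25, on lower counts (a median mean count of 54.9 in P3 and 113 in Q4). By library, the median difference of Q4 members from the WT mean was -0.10, -0.39 and -0.35 on the log2 scale in OE replicates 1 to 3, -0.10, 0.05 and 0.21 in KO and -0.05, -0.05 and 0.10 in WT. OE replicate 1 was close to the lowest KO library, and the other OE libraries lay below all KO and WT libraries.

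**Figure D4:**
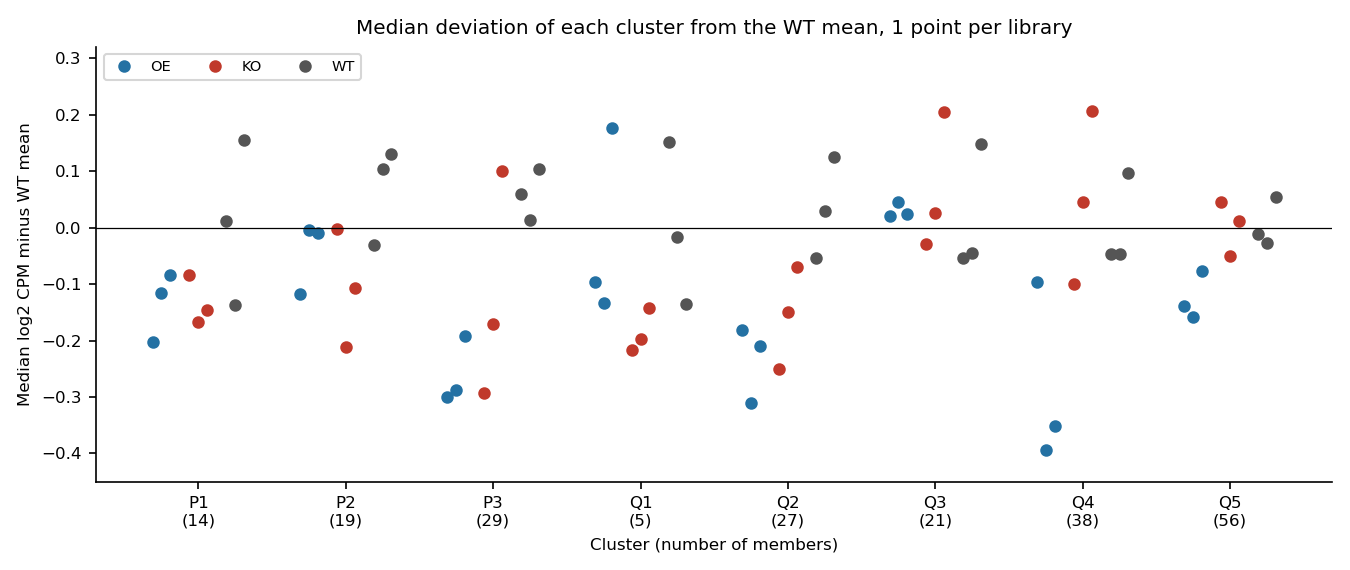
Median over the members of each cluster of log2 CPM minus the WT mean, with 1 point per library and groups OE, KO and WT from left to right within a cluster. In Q4 OE replicates 2 and 3 lie at -0.39 and -0.35, below all KO and WT libraries, while OE replicate 1 lies at -0.10.

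Of the 66 p-arm members, 0 were called higher and 2 lower in OE (3.03% lower), and 1 higher and 5 lower in KO (7.58% lower), with median log2 fold changes of -0.16 in OE and -0.11 in KO. Of the 156 q-arm members, 0 were called higher and 12 lower in OE (7.69% lower), and 3 higher and 6 lower in KO (3.85% lower), with medians of -0.15 in OE and -0.03 in KO. Of all genes tested, 11% were lower in OE and 9.6% lower in KO. Without OE replicate 2, 0 p-arm and 6 q-arm members were lower in OE by edgeR, with 7 and 23 at an unadjusted p under 0.05. At an unadjusted edgeR p under 0.05 over all libraries, 2 p-arm and 4 q-arm members were higher in OE, and DESeq2 called 0 and 2 while limma-voom called 0 and 0. No difference between the arms was tested, since members are not replicates and neighbouring members are often related by duplication.

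ZNF557 and ZNF560, both in P1, were lower than WT in OE and in KO. ZNF557 averaged 3.48 ± 0.771 CPM in OE, 3.14 ± 0.762 in KO and 6.76 ± 2.53 in WT (SD, n = 3 each), with edgeR adjusted p-values of 0.0483 in OE and 0.0282 in KO. ZNF560 had an edgeR adjusted p of 0.0395 in OE. These comparisons share the WT libraries.

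OE and KO compared directly gave more calls. By edgeR 12 members were higher and 27 lower in OE than in KO (17.6%), against 19% and 20.6% of all genes tested, 39.7% together. The libraries did not overlap for 71 members (32%), against 51.7% of all genes tested. With scaling by library totals the calls were 6 higher and 32 lower. Without KO replicate 2 the counts were 5 higher and 14 lower, without KO replicate 3 they were 6 higher and 17 lower, 7 were higher without OE replicate 3, and 16 were lower without OE replicate 2. Of the 27 lower in OE, 11 lie in Q4, among them 5 of the 9 genes that were lower in OE than in WT.

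ZNF665 and ZNF100, higher in KO than in WT, were lower in OE than in KO. For ZNF665, which met the count rule only through KO, 5 summed counts in OE and 68 in KO gave a ratio of 0.0741 with a 95% exact interval of 0.0233 to 0.182. The log2 fold change of ZNF100 was -1.65 (SE 0.30, edgeR adjusted p = 3.96e-04). These comparisons share the KO libraries. A further 3 P3 genes were lower in OE, with ZNF737 at 2.15 ± 0.342 CPM in OE and 5.44 ± 0.729 in KO, ZNF486 at 2.22 ± 0.724 in OE and 5.46 ± 0.820 in KO, and ZNF90 at 0.615 ± 0.463 in OE and 2.01 ± 0.331 in KO (SD, n = 3 each). For ZNF229 the values were 13.4 ± 2.09 CPM in OE and 27.4 ± 2.98 in KO.

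Genes higher in OE than in KO included ZNF524, the shortest member. ZNF428, with a Length of 1553 bases, averaged 74.1 ± 27.7 CPM in OE and 36.5 ± 6.36 in KO, and ZNF524, with 1441 bases, averaged 11.5 ± 3.40 in OE and 4.86 ± 1.29 in KO (SD, n = 3 each). ZNF575 averaged 3.14 ± 0.162 CPM in OE and 1.06 ± 0.127 in KO, a log2 fold change of 1.54 (SE 0.41, edgeR adjusted p = 0.00740). The spread of ZNF428 in OE came from 105.5 CPM in replicate 2, against 53.2 and 63.7 in replicates 1 and 3. ZNF676 had 27 counts over the OE libraries and 2 over the KO libraries, a ratio of 13.6 with a 95% exact interval of 3.42 to 118. ZNF114, ZNF823, ZNF599, ZNF681, ZNF791, ZNF581, ZNF506 and ZNF583 were also called higher.

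The Length column, the summed length of a gene's exons, ran from 1441 to 14132 bases over the members with a median of 5426. In OE the median fold change was lower in longer genes. In the ranges 1441 to 4414, 4444 to 6758 and 6776 to 14132 bases, the median log2 fold change between OE and WT was -0.01, -0.15 and -0.23 over the 74 members in each, against 0.15, -0.03 and -0.21 over all genes tested. The medians of the members lay below those of genes of like length in all 3 ranges, and the difference was not tested. Without OE replicate 2 the medians were -0.08, -0.06 and -0.14 over the members, against 0.12, -0.0025 and -0.15 over all genes tested, so the long members were then not below genes of like length. The Spearman correlation of the log2 fold change in OE with log2 Length was -0.24 over the 222 members and -0.36 over 14150 genes, both descriptions over genes that share libraries. Without OE replicate 2 it was -0.13 over the members and -0.27 over all genes tested. In KO it was -0.05 over the members and 0.14 over all genes tested. The calls lower in OE numbered 2, 7 and 5 in the short, middle and long members (2.70%, 9.46% and 6.76%), against 3.36%, 10.03% and 20.6% of all genes tested in these ranges. Without OE replicate 2 they numbered 1, 2 and 3. With an offset that removes each library's trend of counts on Length, the OE calls were 2 higher and 10 lower, the KO calls 6 higher and 14 lower, and the correlation in OE was 0.13 over the members. For each member, log2 CPM in a library was also taken relative to the mean of the 3 group means. The slope of this difference on log2 Length was -0.04, -0.25 and -0.04 in OE replicates 1 to 3. It was -0.03, 0.04 and 0.21 in KO and 0.01, -0.01 and 0.11 in WT. These slopes are relative among the libraries, and OE replicate 2 and KO replicate 3 stood farthest from 0.

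**Figure D5:**
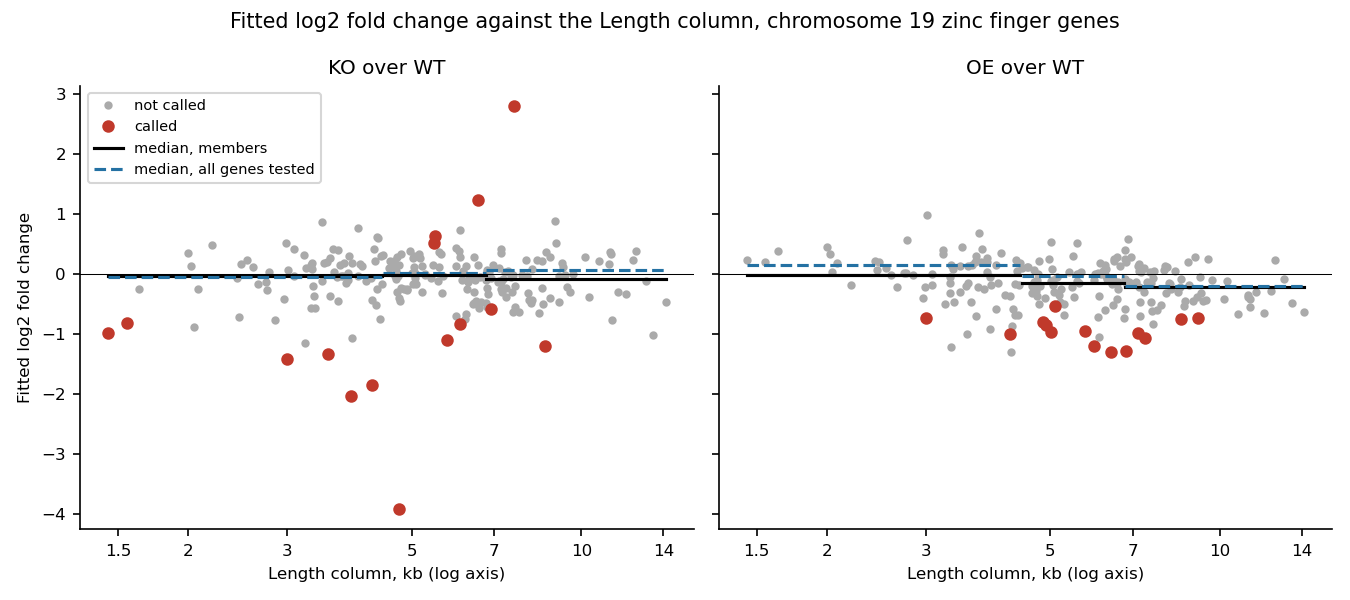
Fitted log2 fold change of the 222 members against the Length column (log axis), KO over WT on the left and OE over WT on the right, with called genes in red, medians of the members by range of Length as black lines and medians of all genes tested in the same ranges as dashed blue lines. In OE the black lines lie at -0.01, -0.15 and -0.23 and the dashed lines at 0.15, -0.03 and -0.21.

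The corepressor machinery that KRAB zinc finger proteins act through was measured with a list of 33 genes, of which 32 were tested. In OE 10 of the 32 were called lower than in WT (31.25%) and 2 higher, and 6 were lower with the length offset. Of all genes tested 11% were called lower in OE, and 20.6% of those with a Length of 6776 to 14132 bases. The difference between these shares was not tested. The genes lower in OE were the maintenance DNA methyltransferase DNMT1 (68.9 ± 9.52 CPM in OE, 163 ± 8.45 in KO and 146 ± 28.4 in WT), its partner UHRF1, the de novo methyltransferase DNMT3A (10.4 ± 1.87 CPM in OE, 28.5 ± 2.94 in KO and 27.1 ± 6.82 in WT), the chromatin remodellers CHD3 and ATRX, the NuRD subunits GATAD2A, GATAD2B and RBBP4, the SETDB1 partner ATF7IP and the HUSH subunit TASOR. The log2 fold change in OE was -1.09 for DNMT1 (SE 0.15, edgeR adjusted p = 2.82e-04) and -1.37 for DNMT3A (SE 0.21, edgeR adjusted p = 4.97e-04). The number lower in OE was 7 without WT replicate 3 and 10 without OE replicate 2. The central corepressor TRIM28 was not called, with 509 ± 65.5 CPM in OE, 564 ± 82.5 in KO and 512 ± 52.8 in WT (SD, n = 3 each), and neither was SETDB1. In KO 0 of the 32 was called against WT by edgeR, DESeq2 or limma-voom, with 2 at an unadjusted edgeR p under 0.05. Of all genes tested, edgeR called 18.8% between KO and WT. The median Length of the list was 7318 bases, above the 5426 of the members.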

How the data were processed

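The authors deposited 1 file of whole-number read counts per gene for each library, not normalized. Per the file headers, featureCounts 1.5.2 counted reads on an Ensembl 101 annotation of GRCh38 with no option for strand, multiply mapped reads or overlapping genes, so reads in shared stretches were left out and recent copies may be undercounted. The submitters' processing notes name HISAT2 1.03 and featureCounts 0.1.0. The deposited Length column is used as other information. A biotype came from GENCODE 29, and promoters from RefSeq on GRCh38.p14 for 196 of the 222 genes.

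The groups follow the sample titles. The members, lists and tests were chosen with earlier results of these data known. Counts were fitted with edgeR 4.0.16 (R 4.3.3; TMM, filterByExpr with a minimum count of 10, quasi-likelihood F test, group term, all 9 libraries), which left 14150 genes and all 222 members, with 6 residual degrees of freedom. Adjustment followed Benjamini and Hochberg over these genes, and a gene was called under 0.05. CPM is relative to the TMM-scaled total. Named genes are up to 8 called higher and 8 called lower per comparison with the largest change, no overlap of groups and at least 2 CPM in the higher group, genes called in both comparisons with WT, the 6 highest per length in WT, those at the edge of the count rule, and 16 with a known role. Other called genes were named after their values were seen. Of the members' 31-base stretches a median of 11.8% occur in other genes' transcripts, and 8 members share over 50%. Intervals cover counting error only.

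Alternatives were DESeq2 1.42.0, limma-voom (limma 3.58.1), other scalings and filters, a length offset, a replicate block and leaving out each library. Replicate numbers were not taken to pair samples, since the sources used do not say what separates the replicates. The correlations between libraries of different groups ran from -0.14 to 0.25 for the same number and from -0.28 to 0.22 for different numbers. The highest of them was that of WT replicate 2 with OE replicate 2.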

Additional observations from a re-analysis of the deposited data

How the results depend on the processing

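Over 20 other settings the members' median log2 fold change stayed below 0 in all 3 comparisons, and the members called changed sign under no setting. Called under every setting that tested them were 5 of 15 members between KO and WT (ZNF560, ZNF100, ZNF43, ZNF676 and ZNF665), 3 of 14 between OE and WT (ZNF616, ZNF836 and ZNF578) and 13 of 39 between OE and KO. Of these, ZNF665 met the count rule only through KO and ZNF676 only through OE and WT, so their calls are descriptions. Both are also among the 13 between OE and KO, and they were tested in 19 and 18 of the 20 settings.

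With library totals in place of TMM, the median over all genes tested moved to -0.13 in OE against WT. The members stood at -0.28, with 23 called lower. There 2 were called higher in KO against WT, and 6 in OE against KO. In OE against WT, 2 were higher with DESeq2, 1 without a filter, 1 with a mean count of at least 20 and 2 with the length offset, and 9 were lower with those 2 groups fitted alone. In OE against KO, 7 were higher without a filter.

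With the replicate block, 2 were higher and 16 lower in OE against WT, 5 and 13 in KO against WT and 13 and 31 in OE against KO. With the replicate block and the length offset together, 17 were lower in KO against WT, 2 higher in OE against WT and 19 higher in OE against KO. Numbers that are shared but not tied to a batch do not make a paired design.

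Leaving out each of the 9 libraries in turn gave 2 to 6 members higher and 5 to 13 lower in KO against WT, 0 to 1 higher and 3 to 15 lower in OE against WT, 5 to 15 higher and 14 to 28 lower in OE against KO, and 3 to 10 lower in OE in Q4. The causes were not tested. With clusters cut at gaps of 500 kb, Q4 still had 9 members lower in OE. A mean of 10 counts would give 218 members, and 10 counts in all 9 libraries 197.

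The depth behind the members was low: their median mean count was 86.6, against 213 over all genes tested, and their median standard error in KO against WT was 0.23, against 0.19. The part of depth in their calls was not tested; ZNF genes on other chromosomes had a median standard error of 0.22.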
